A study of Homo sapiens with 30 samples.

Results

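The untreated state of LX2 cells was taken from the 5 cultures, of 30 in the series, that received vehicle in place of a fatty acid and then vehicle in place of betacellulin. LX2 is a human cell line of hepatic stellate origin in the activated state, kept here in DMEM and moved to 1% fetal calf serum for the last step. The other 25 cultures, 5 in each of 5 groups, got betacellulin (BTC, a growth factor that binds ErbB receptors, 20 ng/ml for 72 h), oleic acid or docosahexaenoic acid (DHA) at 50 µM on albumin, or a fatty acid and BTC. In the labels BTC also appears at 50 µM, and 20 ng/ml was taken as its dose. They give the length of the fatty acid step in more than 1 way. The labels name 5 experiments, each with 1 culture of every group, so the untreated cultures are numbered 1 to 5 by experiment. All libraries come from 1 cell line, and the labels do not say whether the experiments were separate passages. The p-values below therefore speak for cultures of this line only. They rest on the spread left between libraries after group and experiment are fitted, except where a term is said to be left out. The spread over the 5 untreated cultures has no p-value of its own.

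Quiescent stellate cells of the liver store vitamin A as retinyl esters in lipid droplets. On injury they turn into contractile, matrix-producing myofibroblasts that express smooth muscle actin and fibrillar collagens, and they become the main source of scar matrix. PDGF is their best-known mitogen and TGF-beta their best-known fibrogenic signal. LX2 was derived from stellate cells immortalised with a viral T antigen and selected for growth in low serum, so it grows continuously and models the activated state.

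Levels are CPM (reads of a gene scaled to a common library total of 1000000) from 3′ tag sequencing, in which a transcript gives a read from its polyadenylated end, so a level follows the number of transcripts and was not divided by length. The 5 libraries held 9490142, 3641222, 2569815, 4606836 and 3506418 reads in cultures 1 to 5, against 1245182 to 5425009 in the treated libraries. A gene is called present below when it reached 1 CPM in all 5 cultures, low when it stayed under 1 CPM in every culture but had a read, and listed at 0 when no culture had a read. A count of 0 allows up to 3 reads, which is 0.316 CPM in culture 1 and 1.17 CPM in culture 3, and this floor covers counting error only. Of the 61597 genes in the table, 10860 (17.6%) were present, 5009 were present in some cultures, 5946 were low and 39782 (64.6%) were listed at 0. A listing at 0 is not always absence: EEF1G, an elongation factor subunit that every cell uses, was at 0 in all 5 cultures. Of 145 such housekeeping genes 10 had a mean under 10 CPM, and 6 of those 10 (EEF1G, ALDOA, EIF3L, RPL17, PSMA6 and EIF4A1) share their transcript end with another gene on the same strand. Among all protein-coding genes with such a shared end 76 of 968 (7.85%) were present, against 52.1% of those with an end of their own. That 52.1% is the share to set beside the counts of present genes in the lists below.

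The label of activated stellate cells was set beside 5 marker genes, and all 5 were present in every culture. Presence is a weak check, since 52.1% of protein-coding genes with an end of their own were present too. Of the wider list of 30 stellate, pericyte and fibroblast markers 17 (56.7%) were present, and several known stellate genes were low or listed at 0, as given below. COL1A1, the alpha 1 chain of type I collagen, was at 1053, 2052, 587, 333 and 1515 CPM in cultures 1 to 5 (mean 1108 ± 695, SD, n = 5) and ranked 110th of all genes. TIMP1, an inhibitor of matrix metalloproteinases, was at 333, 187, 561, 649.7 and 303 CPM and ranked 401st. The other 3 markers lay well lower. ACTA2, smooth muscle alpha-actin and the usual marker of stellate activation, was at 39.4, 72.5, 169, 57.7 and 101 CPM, rank 2179. PDGFRB, the receptor that answers PDGF-B, was at 65.2, 57.9, 37.7, 46.7 and 71.3 CPM, rank 3333. COL1A2, which supplies the alpha 2 chain of type I collagen, was at 86.0, 52.7, 31.9, 11.3 and 69.0 CPM, rank 3634. The markers did not share a high culture: COL1A1 was highest in culture 2, TIMP1 in culture 4, ACTA2 in culture 3, PDGFRB in culture 5 and COL1A2 in culture 1.

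**Figure D1:**
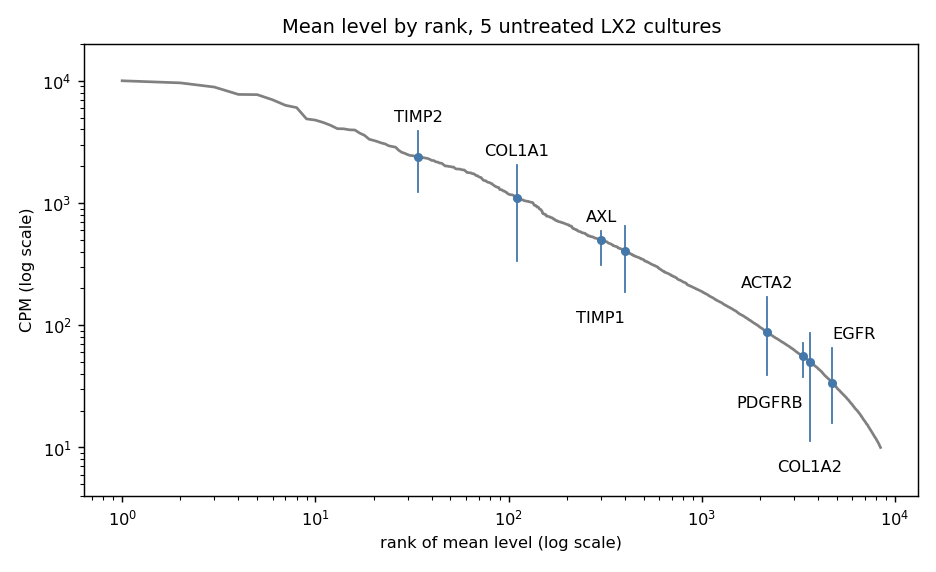
Mean CPM over the 5 untreated cultures (vertical, log scale) against the rank of the mean (horizontal, log scale) for the 8413 genes at a mean of 10 CPM or more. The grey line is every gene, and blue points with bars mark the mean and the lowest and highest culture of 8 genes. COL1A1 and TIMP2 stand among the 133 genes above 1000 CPM, while ACTA2, PDGFRB, COL1A2 and EGFR lie below 100 CPM.

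Markers of other cell types that a stellate culture could hold were unequal, with hepatocyte genes at or near 0 and the epithelial list the highest in sum. None of 15 hepatocyte genes was present, and their summed level ran from 0.275 to 7.90 CPM; ALB (albumin), TTR and HNF4A were listed at 0. Of 13 endothelial genes 2 were present, summing to 10.4 to 18.5 CPM for the list, and of 7 mesothelial genes 2 were present, led by WT1 at a mean of 9.62 CPM. Of 16 Kupffer cell and leukocyte genes 4 were present and the list summed to 16.5 to 75.9 CPM. PTPRC, the pan-leukocyte antigen CD45, had at most 3.50 CPM, and CD3E was listed at 0. Of 13 bile duct and epithelial genes 6 were present and the list summed to 190 to 857 CPM, most of it from the paired keratins KRT18 (89.1, 138, 526, 291 and 159 CPM) and KRT8 (57.6, 60.4, 213, 105 and 44.8 CPM). Both keratins were highest in culture 3. Of 12 portal fibroblast and smooth muscle genes 5 were present and the list summed to 143 to 204 CPM, most of it from CNN1, the smooth muscle calponin (45.1, 88.7, 65.4, 50.6 and 81.6 CPM), and FBLN2, a fibulin of portal fibroblasts (49.6, 25.8, 72.8, 52.7 and 49.9 CPM). The defining epithelial gene EPCAM had 2 reads in culture 1 and none elsewhere, and KRT19 did not pass 1.95 CPM. CDH1, E-cadherin, was at 8.32, 14.0, 40.1, 15.4 and 7.41 CPM, again highest in culture 3. The leukocyte list was also highest there, and the part of such genes in other values of culture 3 was not tested.

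The most abundant transcripts were those of protein synthesis, the cytoskeleton and the mitochondrion. RPS27A, which encodes ubiquitin fused to a ribosomal protein, led with 9319, 13504, 5925, 8420 and 12841 CPM (mean 10002 ± 3159). TUBA1B, an alpha-tubulin, followed with 6253, 9863, 11318, 11465 and 9161 CPM, and the mitochondrially encoded MT-CO3, a cytochrome oxidase subunit, with 8314, 6939, 9882, 10465 and 8815 CPM. The rest of the top 10 were RPL37A, RPL27A, ACTG1, RPS28, CD63, RPS21 and TMEM158. ACTG1, cytoplasmic gamma-actin, was at 4880, 5377, 8612, 8913 and 7182 CPM, far above smooth muscle alpha-actin. CD63, a tetraspanin of endosomes and exosomes, was at 3496, 3312, 8670, 9540 and 5150 CPM. TMEM158, a membrane protein first described as induced by oncogenic Ras, was the least even of the top 10, at 6769, 1858, 2329, 8069 and 4816 CPM.

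Together these 10 genes took 7.29% ± 1.48 of the reads, from 5.52% to 9.32% over cultures, and 6 of them were among the top 10 of every culture. The top 25 took 12.7% and held 12 ribosomal protein genes, 3 mitochondrially encoded genes and 2 tubulins, with B2M (the light chain of MHC class I), GSTP1 (a glutathione transferase), GAPDH, H2AZ1 and the secretory pathway gene TMED9 among the others. Of the 100 most abundant genes 53 were in the top 100 of all 5 cultures. Ribosomal protein genes took 8.84%, 10.4%, 13.7%, 14.9% and 12.0% of reads in cultures 1 to 5, mitochondrial genes 2.19% to 3.28%, and the collagens 0.430%, 0.512%, 0.193%, 0.181% and 0.537%. Cultures 3 and 4 had the highest ribosomal shares of the 5 and the lowest collagen shares.

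Contractile and cytoskeletal genes of activated stellate cells were nearly all present, 25 of 27, and summed to 8397, 9628, 10962, 7660 and 9015 CPM. FLNA, filamin A, which crosslinks actin, was at 1164, 1799, 2211, 2333 and 1963 CPM. ACTN1, the alpha-actinin of stress fibres, was at 1672, 1707, 1608, 1314 and 2071 CPM. MYL9, the regulatory light chain of smooth muscle myosin, was at 418, 815, 1902, 876 and 766 CPM. These 3 genes made up 49.5% of the summed level of the list. TAGLN, transgelin, a smooth muscle actin-binding protein, was at 177, 245, 1399, 302 and 329 CPM, so culture 3 stood far above the other 4. Desmin (DES), an intermediate filament gene that marks stellate cells of rodents, was listed at 0. VIM, vimentin, was at 954, 331, 357, 432 and 491 CPM.

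Transcription of many contractile genes runs through the CArG box, the binding element of serum response factor. SRF itself was at 451, 374, 553, 323 and 307 CPM, the highest mean of 48 factors of mesenchyme and stellate activation, and JUN was next with 421, 363, 369, 281 and 437 CPM. JUN was above SRF in culture 5, and without culture 3 the mean was 376 CPM for JUN and 364 CPM for SRF. Its coactivator MRTFA was at 52.1, 70.3, 38.9, 53.6 and 74.4 CPM. RefSeq promoters (GRCh38.p14, 250 bases before to 50 after each start) were found for 23 of the 27 contractile genes and searched on both strands for the CArG box. It was in 10 of their 46 promoters (21.7%), which belong to 8 genes, against 454 of 35116 promoters (1.29%) over all genes. A match is a description of the letters and no evidence of binding, and the genome build behind the deposited values is not given in the sources used here. The 8 genes are ACTG2, ACTN1, CNN2, FHL2, FLNA, MYLK, SMTN and TPM4, so ACTA2, TAGLN and MYL9 are not among them. FHL2 has several of the 10 promoters, and some of these hold the same box. Stretches before the start of 4 of the 8 genes are shown as examples. They carry the element in promoters of genes that were present in all cultures, with the CArG box in capitals and the strand of the gene given.
ACTG2 (chr2:73892873-73892969, plus strand): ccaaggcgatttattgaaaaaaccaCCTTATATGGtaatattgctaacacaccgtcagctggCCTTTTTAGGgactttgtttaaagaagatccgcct
CNN2 (chr19:1026494-1026553, plus strand): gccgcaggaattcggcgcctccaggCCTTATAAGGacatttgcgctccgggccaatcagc
FLNA (chrX:154374694-154374753, minus strand): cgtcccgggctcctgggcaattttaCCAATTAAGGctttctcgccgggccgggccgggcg
MYLK (chr3:123620608-123620667, minus strand): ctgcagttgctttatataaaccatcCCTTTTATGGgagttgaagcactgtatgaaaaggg
ACTG2, smooth muscle gamma-actin, carries 2 boxes whose first bases lie 110 and 73 bases before the start, yet it was a low member of its list at 15.4, 26.6, 40.5, 17.8 and 26.2 CPM. CNN2 (calponin 2, box 89 bases before the start) was at 85.7, 125, 166, 120 and 169 CPM. MYLK, myosin light chain kinase, with its box at 94 bases, was at 736, 1295, 346, 307 and 649 CPM, and FLNA, also at 94 bases, has its values above. ACTG2 and CNN2 were lowest in culture 1, as FLNA was, while MYLK was highest in culture 2 and lowest in culture 4.

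Markers of stellate cells, pericytes and fibroblasts were mixed. Of 30 such genes 17 were present (56.7%), near the 52.1% of protein-coding genes with an end of their own. S100A6 (calcyclin) with 2598, 1198, 2870, 3781 and 1781 CPM, NT5E (CD73) and CSPG4 (the pericyte proteoglycan NG2) held 88.3% of the sum. THY1, a fibroblast surface protein, was at 38.4, 55.5, 52.9, 79.0 and 70.4 CPM. PDGFRA, the other PDGF receptor, was far below PDGFRB, at 15.5, 3.30, 1.17, 4.78 and 1.71 CPM. Several genes known from stellate cells in the liver were low: GFAP had 1 read in all, NGFR was present at 1.10 to 5.90 CPM, and RELN reached 1.71 CPM and CYGB (cytoglobin) 1.95 CPM. TCF21 and LRAT were listed at 0.

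Retinoid storage genes were largely missing. Of 28 genes of retinoid handling and lipid storage 8 were present, and the droplet coats PLIN3 (544, 705, 1229, 1212 and 755 CPM) and PLIN2 (105, 92.8, 128, 131 and 162 CPM) and the factor CEBPB made up 96.2% of their sum with each other. LRAT, the enzyme that esterifies retinol for storage, was listed at 0, and STRA6, a retinol transporter, had 1 read in culture 1. PPARG, the adipogenic nuclear receptor that marks quiescence, had a single read in culture 3. Of 36 nuclear receptors 20 were present (55.6%), near the 52.1% of protein-coding genes with an end of their own. NR2F2 (COUP-TFII) led with 532, 631, 226, 157 and 227 CPM, and cultures 1 and 2 were above the other 3. RXRA, the shared partner of retinoid and lipid receptors, was even at 119, 124, 73.9, 111 and 147 CPM. VDR, the vitamin D receptor, was at 54.2, 30.8, 19.5, 39.1 and 44.2 CPM, and PPARD at 23.9, 12.1, 24.1, 19.1 and 20.2 CPM.

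Collagens were present in 18 of 29 cases and summed to 4285, 5110, 1912, 1808 and 5365 CPM. After COL1A1 came COL6A1, a chain of the beaded-filament collagen VI, at 647, 375, 248, 599 and 1390 CPM, and COL4A2, a basement membrane chain, at 564, 575, 248, 213 and 485 CPM. COL3A1, the fibrillar collagen that accompanies type I, was at 357, 352, 93.8, 52.1 and 282 CPM. Cultures 3 and 4 were the lowest for COL1A1, COL1A2, COL3A1 and COL4A2, and COL6A1 was lowest in cultures 2 and 3. Chains of 1 protein were not listed at like levels: COL4A1, the partner of COL4A2 in collagen IV, was at 62.4, 42.6, 23.3, 7.60 and 38.5 CPM. Listed levels of different genes may not compare here. RPS26, a ribosomal protein gene whose end is not shared, had a mean of 32.8 CPM, where RPS27A had 10002 CPM. Whether partner chains differ in number of transcripts was not tested.

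Matrix glycoproteins were present for 34 of 42 genes and summed to 3490 to 7519 CPM. FN1, fibronectin, was at 1150, 1464, 554, 277 and 971 CPM and SPARC, a collagen-binding matricellular protein, at 586, 996, 627, 275 and 1024 CPM. CCN1, a matricellular protein and target of YAP and SRF, had the highest mean of the list, with 1336, 586, 2452, 748 and 721 CPM, but FN1 was above it in cultures 2 and 5. Without culture 3 the mean was 848 CPM for CCN1 and 965 CPM for FN1. CCN2, connective tissue growth factor and a relative of CCN1, was at 218, 239, 474, 72.1 and 186 CPM, so CCN1 and CCN2 were both highest in culture 3. Elastin (ELN) was listed at 0. POSTN, periostin, stayed at or under 11.0 CPM, and the small proteoglycan DCN, decorin, at or under 2.32 CPM.

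Genes of collagen folding and crosslinking were nearly all present, 20 of the 21 found. SERPINH1, the collagen chaperone HSP47, was even at 697, 695, 713, 543 and 868 CPM, unlike COL1A1. P4HB, a subunit of prolyl hydroxylase, was at 449, 560, 395, 480 and 803 CPM and LOXL2, a lysyl oxidase, at 294, 547, 564, 359 and 699 CPM. Culture 5 was the highest for all 3.

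Of 38 matrix proteases and their inhibitors 26 were present, summing to 5485 to 7581 CPM, and an inhibitor had the highest level. TIMP2, which holds metalloproteinases in check, was at 2061, 2922, 1232, 1888 and 3872 CPM, rank 34, above TIMP1 in every culture. SERPINE2, a protease inhibitor of the matrix, was at 1860, 765, 260, 642 and 914 CPM, highest in culture 1 and lowest in culture 3. The metalloproteinases named here were lower. MMP1, the interstitial collagenase, was at 237, 28.0, 13.2, 160 and 79.3 CPM, with culture 1 highest and culture 3 lowest. MMP2, gelatinase A, was at 51.0, 34.9, 17.9, 33.0 and 39.4 CPM, and MMP14, its membrane-bound activator, at 59.3, 27.2, 70.4, 45.4 and 30.5 CPM.

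Receptor tyrosine kinases were present for 26 of 41 genes, and their summed level was the most even of the 27 gene lists, at 2132, 2155, 2108, 2029 and 2370 CPM. AXL, the receptor of GAS6, led with 308, 573, 592, 467 and 540 CPM. PTK7, a Wnt-linked receptor without kinase activity, was at 237, 285, 304, 360 and 449 CPM, EPHB4 at 189, 184, 292, 323 and 279 CPM, and FGFR1 at 238, 143, 174, 204 and 227 CPM. Of the ErbB family, which binds BTC, ERBB2 was the most even gene of the family at 31.0, 36.8, 37.7, 35.4 and 36.2 CPM. EGFR was at 64.8, 41.2, 18.7, 15.8 and 28.5 CPM, ERBB3 at or under 3.14 CPM, and ERBB4 was listed at 0. MET, the hepatocyte growth factor receptor, was at 55.6, 46.4, 16.0, 25.2 and 23.4 CPM, with EGFR and MET both highest in cultures 1 and 2.

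Their ligands were sparser, 17 of 40 present. GAS6 was at 214, 43.4, 286, 99.4 and 87.6 CPM, VEGFB at 70.7, 81.6, 135, 185 and 128 CPM, and PDGFC, a PDGF that needs cleavage to act, at 126, 109, 28.0, 32.8 and 58.7 CPM. PDGFA had a mean of 34.0 ± 11.5 CPM and PDGFB, the main ligand of PDGFRB, was present at 7.14 to 13.8 CPM. Among ligands of the ErbB receptors HBEGF was even at 33.5, 27.5, 33.1, 21.3 and 34.5 CPM and NRG1 was present at 2.82 to 10.1 CPM. BTC, the growth factor given to other groups, had 3 reads in culture 1 and none elsewhere, and TGFA was listed at 0.

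In the TGF-beta superfamily receptors and intracellular parts were well represented and ligands were few. Of 36 receptors, SMADs and regulators 26 were present. TGFBR1 was at 89.9, 88.4, 17.1, 10.2 and 29.4 CPM and TGFBR2 at 86.7, 32.1, 22.2, 23.2 and 45.6 CPM. SMAD3, which carries the signal to collagen genes, was at 127, 177, 104, 161 and 216 CPM. Secreted regulators stood above the receptors, with FSTL1, a follistatin-like protein, at 512, 1016, 354, 137 and 492 CPM and GREM1, a BMP antagonist, at 408, 149, 86.0, 95.7 and 84.1 CPM. Of 22 ligands 6 were present. TGFB1 was at 23.7, 18.7, 26.1, 32.1 and 34.2 CPM, GDF11 at 92.4, 79.1, 44.8, 56.9 and 59.3 CPM and INHBA, the activin A subunit, at 74.0, 39.8, 24.1, 13.2 and 7.70 CPM.

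Cytokine and chemokine ligands were present for 15 of 48 genes. CXCL12, the ligand of CXCR4, was at 186, 270, 83.3, 83.1 and 245 CPM, and IL11, a fibroblast cytokine, at 218, 131, 148, 173 and 93.8 CPM. CCL2, the monocyte chemokine, was at 83.5, 7.42, 29.6, 58.0 and 58.5 CPM and IL1B at 46.2, 6.32, 31.5, 56.9 and 16.8 CPM. Both were lowest in culture 2. IL6 did not pass 1.52 CPM. Of 48 receptors of cytokines, chemokines and microbial products 23 were present: TNFRSF1B, a TNF receptor, led with 187, 176, 204, 443 and 382 CPM, and IL17RA was nearly constant at 49.6, 53.8, 59.9, 51.9 and 56.2 CPM. TLR4, the lipopolysaccharide receptor, was at 33.0, 27.5, 10.9, 14.1 and 16.8 CPM. CXCR4 reached 2.32 CPM in culture 1.

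Vasoactive and lipid G protein-coupled receptors were mostly low, 15 of 50 present. OXTR, the oxytocin receptor, led with 97.2, 84.0, 57.6, 12.8 and 29.4 CPM, then F2R, the thrombin receptor, with 59.6, 42.6, 10.5, 11.5 and 17.7 CPM. Receptors often studied in stellate contraction were low: EDNRA reached 2.32 CPM, AGTR1 had 2 reads, CNR1 4 reads, and EDNRB was listed at 0. ECE1, the enzyme that makes endothelin, was at 1572, 1691, 592, 1097 and 2742 CPM, while the precursor EDN1 was at 12.0, 23.9, 26.1, 1.74 and 5.42 CPM.

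Hedgehog, Wnt and Notch components were present for 21 of 37 receptors and regulators (56.8%) and 7 of 28 ligands (25%). The first share is near the 52.1% of protein-coding genes with an end of their own, and the second is below it. SFRP1, a secreted Wnt antagonist, was at 371, 450, 137, 200 and 520 CPM, and NOTCH2 at 82.9, 64.5, 61.5, 37.8 and 129 CPM. SMO, the Hedgehog transducer, was at 16.6, 10.2, 31.9, 22.4 and 13.4 CPM and its target GLI1 at 20.8, 27.7, 8.95, 10.9 and 9.13 CPM, while SHH was listed at 0. WNT5A, a ligand of beta-catenin-independent signalling, was at 85.2, 76.6, 19.8, 22.8 and 30.5 CPM.

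Of 29 integrins and other matrix receptors 19 were present. ITGB5 was at 769, 626, 270, 529 and 739 CPM, CD44, the hyaluronan receptor, at 489, 371, 216, 264 and 274 CPM, and the collagen receptor DDR1 at 187, 226, 91.1, 175 and 260 CPM. ITGA5, the fibronectin receptor chain, was among the 10 narrowest of the genes with a mean of 20 CPM or more, at 40.7, 38.7, 41.6, 46.2 and 38.8 CPM, whereas ITGA2, a collagen receptor chain, was among the 20 widest of these, at 188, 33.5, 5.45, 30.4 and 19.1 CPM.

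**Figure D2:**
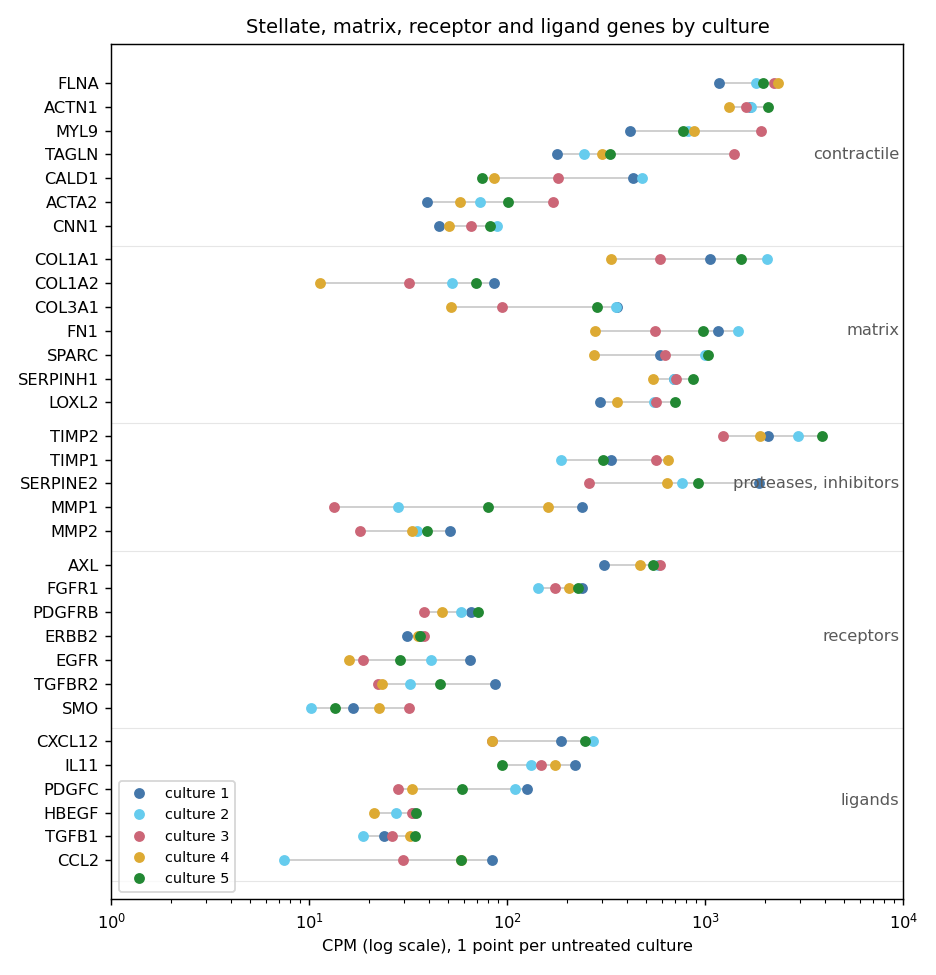
CPM (horizontal, log scale) of 32 genes, 1 point for each of the 5 untreated cultures, grouped by role. Culture colours show that culture 3 was high for TAGLN and ACTA2, that cultures 3 and 4 were low for COL1A1, COL1A2 and COL3A1, and that ERBB2 and SERPINH1 varied little.

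Proliferation genes were present almost throughout, 34 of 35 cell cycle genes, summing to 6951, 8036, 5728, 5263 and 6552 CPM. TOP2A, the topoisomerase of mitosis, was at 847, 1628, 347, 190 and 262 CPM and MKI67, the source of the Ki-67 antigen, at 193, 402, 54.5, 45.4 and 112 CPM. Culture 2 was highest and culture 4 lowest for both. AURKB, a mitotic kinase, went another way with 274, 559, 607, 542 and 666 CPM, and TYMS, a maker of DNA precursors, was even at 356, 350, 251, 300 and 380 CPM. CDKN2A, which encodes the p16 inhibitor, was at 295, 158, 498, 314 and 379 CPM.

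Spread over the 5 cultures was set beside the spread from read counting. The coefficient of variation (CV, SD over mean) had a median of 43.5% over the 8413 genes at a mean of 10 CPM or more, against 7.71% from read counting alone. It fell with level, from 51.4% at 10 to 20 CPM to 32.8% at 1000 CPM and above. Between the lowest and the highest culture 2499 genes (29.7%) ranged 4-fold or more on the log2(CPM + 1) scale. Leaving out culture 2, 3, 4 or 5 gave 1824 to 2323 genes, and leaving out culture 1 gave 1562. Genes just inside the 4-fold line were PSMD14 and HIC1, with log2 ranges of 2.0017 and 2.0008, and just outside were ATP1B3 and PTN with 1.9998 and 1.9991. Of the 2499 genes 1283 were highest in culture 1, 711 in culture 2, 344 in culture 3, 28 in culture 4 and 133 in culture 5. Over all 8413 genes the highest culture was 1 for 34.0%, 2 for 20.1%, 3 for 17.5%, 4 for 9.79% and 5 for 18.5%. These counts use CPM as deposited, in which whole cultures were offset. The median deviation from the gene mean was 0.336, 0.158, -0.241, -0.261 and 0.0055 (log2) in cultures 1 to 5. Under 2 other scalings 1869 and 1957 genes ranged 4-fold.

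**Figure D3:**
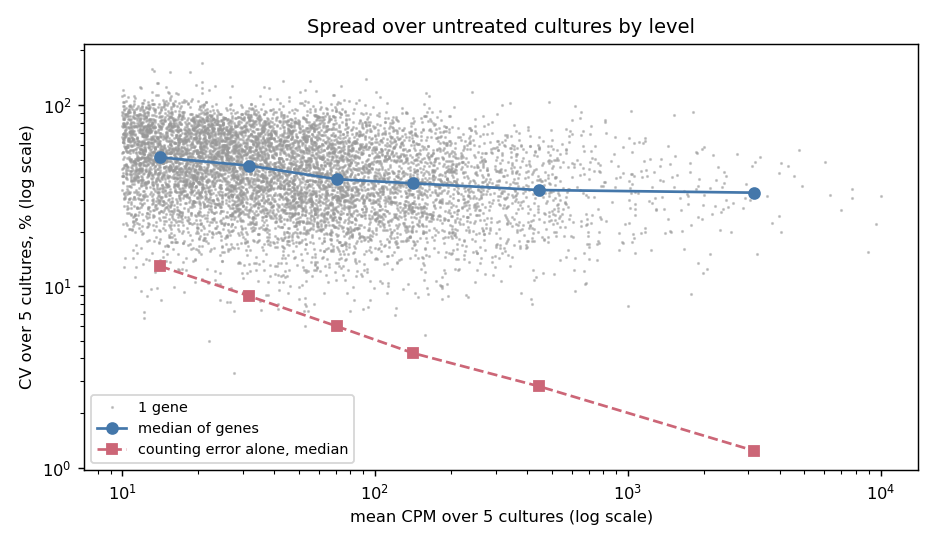
CV over the 5 untreated cultures in percent (vertical, log scale) against mean CPM (horizontal, log scale), 1 grey point per gene at a mean of 10 CPM or more. Blue circles give the median in bins of level, from 51.4% down to 32.8%, and red squares the median that read counting alone gives. The blue line lies above the red at every level.

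Cultures fell into neighbours. Across the 8413 genes log2(CPM + 1) correlated at Pearson r = 0.92 between cultures 1 and 2, 0.93 between 3 and 4 and 0.93 between 4 and 5, and at 0.74 between 1 and 3; genes are not independent replicates, so these are descriptions. Of the genes 9.82% were 2-fold apart between cultures 1 and 2 and 51.9% between 1 and 3. This split moved with base composition and with transcript length. For the 8127 genes with a transcript model, the deviation of a culture from the gene mean had a Spearman correlation with the GC content of the last 300 transcript bases of -0.71, -0.54, 0.42, 0.65 and 0.29 in cultures 1 to 5. With the length of the longest transcript it was 0.42, 0.45, -0.39, -0.49 and -0.04. The parts of GC content and length were not told apart. In the most AT-rich of 10 bins, at a median GC of 27.7%, the median deviation was 1.05 (log2) in culture 1 and -0.80 in culture 4; in the most GC-rich bin, at 60.7%, it was -0.53 and 0.33. Subtracting in each culture the median deviation of genes of like GC content left 1009 genes (12.4%) ranging 4-fold, against 2428 (29.9%) of the same genes before, with 720 in both. Of those 1009 genes 217, 232, 353, 107 and 100 were then highest in cultures 1 to 5. The shares over all genes after the subtraction were not computed. The median CV fell from 43.7% to 33.5%.

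**Figure D4:**
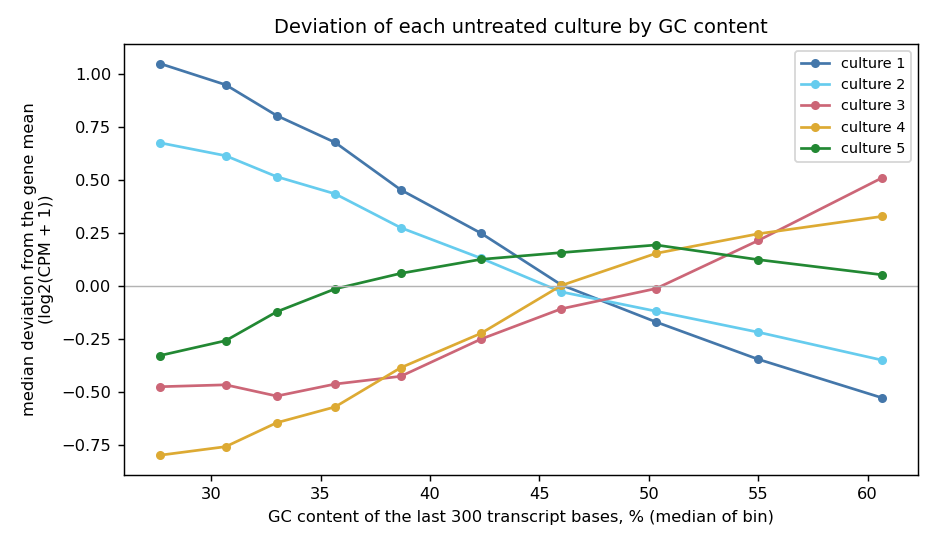
Median deviation of each untreated culture from the gene mean on the log2(CPM + 1) scale (vertical) in 10 bins of GC content of the last 300 transcript bases (horizontal, percent, median of the bin). Lines for cultures 1 and 2 fall from left to right, from 1.05 to -0.53 in culture 1, and those for cultures 3 and 4 rise.

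With that subtraction single genes moved in different ways. EGFR, whose last 300 bases hold 28.7% GC, ranged 3.91-fold before and 1.39-fold after, and NR2F2 and FN1 also narrowed, from 3.99-fold to 1.69-fold and from 5.27-fold to 2.51-fold. COL1A1, with 65.3% GC, went from 6.14-fold to 10.1-fold. TAGLN went from 7.85-fold to 4.37-fold and stayed highest in culture 3, MKI67 from 8.69-fold to 9.93-fold with culture 2 still highest, and TOP2A from 8.53-fold to 3.50-fold.

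The 20 genes with the widest range, of those with a mean of 20 CPM or more, ranged from 4.10-fold to 81.0-fold after the subtraction. These 20 were picked by their range in the same cultures, a log2 range of at least 3.92 before. Staying above 4-fold is therefore no test of their spread. They were led by PPP4C, a phosphatase subunit, at 13.9, 0, 82.9, 5.64 and 1.14 CPM, and H4C3, a histone gene, at 55.6, 134, 481, 119 and 8.56 CPM. EPHA2, an ephrin receptor, was at 90.2, 5.77, 229, 28.4 and 14.0 CPM, CD9, a tetraspanin, at 585, 36.3, 833, 216 and 42.8 CPM, and G0S2, an inhibitor of fat breakdown, at 92.5, 3.57, 20.2, 102 and 40.2 CPM. No culture was high for all of them: culture 1 was highest for 10 of the 20 and culture 3 for 7, PPP4C, H4C3, EPHA2 and CD9 among these, while culture 4 was highest for G0S2. The narrowest were NOP9, ITGA5, TSC22D3, MARCHF9, RSAD1, SEC61A1, SLC43A1, GLRX5, SVIL-AS1 and TRAPPC4. TRAPPC4, a vesicle-tethering subunit, was at 27.2, 26.9, 28.8, 26.9 and 28.5 CPM, and SEC61A1, the protein-conducting channel, at 383, 447, 453, 415 and 384 CPM.

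Whether the same genes vary between experiments was asked of the 25 treated libraries, which had no part in choosing the wide genes. limma, with group as a term, called 10028 of 15137 genes (66.2%) as different between the 5 experiments at an adjusted p under 0.05. Of the 2499 genes ranging 4-fold in untreated cultures 2402 (96.1%) were called, and of the 5914 ranging less 4309 (72.9%). Of the 1009 genes that ranged 4-fold after GC subtraction 861 (85.3%) were called. Among the 20 widest 18 were called, and PPP4C (adjusted p = 0.113) and EPHA2 (adjusted p = 0.116) were not. Among the 10 narrowest 2 were called, TSC22D3 (adjusted p = 0.036) and ITGA5 (adjusted p = 0.0434). The experiment with the highest untreated culture was also the highest by treated mean for 1383 of the 2499 genes (55.3%), and the lowest agreed for 1397 (55.9%). The same shares over all genes were not computed, so these say nothing particular to the wide genes.

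TAGLN kept its highest and lowest experiment: its treated means were 91.0, 227, 1041, 165 and 177 CPM in experiments 1 to 5 (adjusted p = 4.69e-10, limma), again highest in experiment 3 and lowest in experiment 1. TOP2A, at treated means of 839.6, 1845, 288, 136 and 264 CPM (adjusted p = 9.74e-12), and KRT18, at 83.4, 119, 367, 231 and 101 CPM (adjusted p = 6.87e-08), did the same. ITGB2, the leukocyte integrin chain, did not. Its untreated values were 31.8, 50.5, 311, 86.8 and 27.4 CPM, its treated means 115, 362, 61.4, 59.4 and 127 CPM, and the experiments were not called (adjusted p = 0.435). The mean of experiment 2 rests on the library given oleic acid and BTC, at 1533 CPM against 36.7 to 99.6 CPM in the other 4, and without it the mean is 69.1 CPM. In experiment 5 the library given DHA and BTC held 424 CPM against 25.7 to 85.5 CPM, and the mean without it is 52.2 CPM. EPHA2, not called either, had treated means of 23.2, 27.7, 53.8, 41.4 and 10.5 CPM. For PDGFRB, even over the untreated cultures, the adjusted p was 0.0622 by limma.

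**Figure D5:**
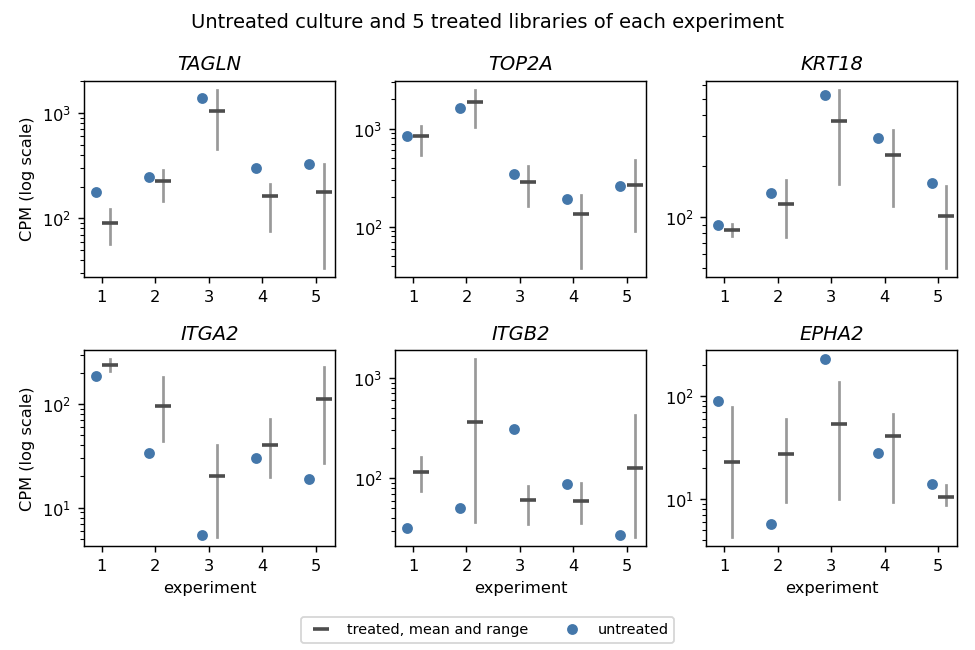
CPM (vertical, log scale) by experiment (horizontal) for 6 genes. Blue points are the untreated culture, and grey bars with a dash are the range and mean of the 5 treated libraries of the same experiment. TAGLN, TOP2A, KRT18 and ITGA2 keep their highest and lowest experiment, while ITGB2 in untreated culture 3, at 311 CPM, lies above all treated libraries of experiment 3.

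Against the other 25 libraries, with the experiment as a block, 2 of 15137 genes (0.0132%) were called in the untreated cultures by limma at an adjusted p under 0.05, and 1039 genes (6.86%) had an unadjusted p under 0.05. ANGPTL4, a lipoprotein lipase inhibitor induced by fatty acids, was at 6.53, 1.37, 2.33, 13.5 and 7.70 CPM untreated and 100.3 ± 158 (SD, n = 25) in the others. It was lower by a log2 difference of -2.59 (SE 0.35, adjusted p = 0.00041) and lower in 5 of 5 experiments. The high values lay in the DHA groups, with means of 214 CPM without and 246 CPM with BTC, against 8.96 CPM with BTC alone, 15.2 CPM with oleic acid and 17.5 CPM with both. CCN2 was higher, at 238 ± 147 CPM against 123 ± 97.9, by 1.18 (log2, SE 0.21, adjusted p = 0.0236), in 5 of 5 experiments. Group means of CCN2 were 158 CPM with BTC, 149 with oleic acid, 167 with both, 93.1 with DHA and 46.9 with DHA and BTC.

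Those 2 calls did not stand in every analysis. Without the experiment block limma called no gene, and 233 had an unadjusted p under 0.05. Against BTC alone it called no gene either, and 1539 had an unadjusted p under 0.05, with ANGPTL4 at -0.35 (log2, adjusted p = 0.822) and CCN2 at 0.65 (adjusted p = 0.452). Leaving out 1 experiment or 1 untreated library at a time gave 1 to 3 genes; it gave 1 without experiment 3 or 5 and without untreated library 1, 3 or 5. The limma call of ANGPTL4 held in all of these, at adjusted p-values of 0.000404 to 0.0322. CCN2 was still called without experiment 2 (adjusted p = 0.00295) and without untreated library 2 (adjusted p = 0.006) or 4 (adjusted p = 0.0493). Its call was lost without experiment 1, 3, 4 or 5, at adjusted p = 0.218, 0.483, 0.136 and 0.272 by limma, and without untreated library 1, 3 or 5, at 0.323, 0.195 and 0.357. Of the 5 stellate markers, none was called. ACTA2 was higher untreated in 5 of 5 experiments, by 0.81 (log2, SE 0.26, adjusted p = 0.599), COL1A2 in 4 of 5 by 1.01 (SE 0.33, adjusted p = 0.599), and PDGFRB in 5 of 5 by 0.54 (SE 0.25, adjusted p = 0.72). COL1A1 differed by 0.32 (SE 0.17, adjusted p = 0.756) and TIMP1 by -0.40 (SE 0.17, adjusted p = 0.718). Contractile genes had a median difference of 0.31 and collagens 0.13, beside 0.07 over all genes, and no member of either list was called.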

How the data were processed

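LX2 RNA was sequenced from the 3′ end of transcripts (QuantSeq, per the labels' protocols). The authors deposited 1 table of CPM values for 30 libraries, each summing to 1000000. The submitters' processing notes name STAR 2.5.3a (alignment) and HTSeq 0.6.0 (counting). For the genome build, the annotation and strand use, the answer is not given in the sources used here; overlapping and antisense genes can share reads. Whole reads were recovered from the CPM steps for 100% of values within 0.01 read. The libraries had 1245182 to 9490142 reads. Symbols matched 61444 of 61597 identifiers. Transcript ends, GC content and lengths came from GENCODE release 29, matched by identifier.

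Levels were computed in Python 3.11.15 with pandas 2.3.3 and numpy 2.4.6, and figures with matplotlib 3.10.9. Tests were limma 3.58.1 with a trend (R 4.3.3) on log2(CPM + 1) where 5 or more libraries reached 1 CPM (15137 genes), two-sided, adjusted by Benjamini-Hochberg over those genes. edgeR 4.0.16 and DESeq2 1.42.0 on recovered reads were alternatives, and the fits were tested on simulated data. The labels give the experiment as a cohort that holds every group, so it was a block. Deviations of an untreated library from its group mean correlated with those of same-experiment libraries at 0.277 to 0.743 (25 pairs, median 0.53), and with libraries of other experiments at -0.681 to 0.656 (100 pairs, median -0.175). Deviations cancel within each group, which by itself pulls the second median down, so its sign is no separate evidence for the block. Named genes were the 25 highest, any member of the 27 gene lists, the 20 widest and 10 narrowest of genes with a mean of 20 CPM or more, and up to 5 called genes in each direction. The members and the lists were chosen with earlier results of these data known. Alternatives were the scaling, pseudocount, filter, tool, depth, GC content, block and left-out cultures. A few genes are not reported here.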

Additional observations from a re-analysis of the deposited data

Results flagged for a closer look

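Of 184 genes named here, 11 had 1 untreated culture whose gap to the nearest other culture, on the log2(CPM + 1) scale, was over 0.71 of the range of all 5. Chance alone sets apart about 1 in 20 such groups of 5 where the values are normally distributed. That rate does not hold for a gene at 0 in all cultures but 1, where a single read meets the rule. AURKB, the mitotic kinase, was low in culture 1 at 274 CPM, where the other 4 cultures had 542 to 666 CPM. TSC22D3, a glucocorticoid-induced gene and among the 10 narrowest named in the text, was low in culture 1 at 106 CPM against 121 to 126 CPM. The cytokine gene TNF was high in culture 3 at 3.50 CPM against 0.275 to 0.434 CPM elsewhere. The other 8 were genes at or near 0 with a few reads in 1 culture. In culture 1 these were BTC at 0.316 CPM, AGTR1 and EPCAM at 0.211 CPM each and STRA6 at 0.105 CPM. In culture 3 GFAP and PPARG were at 0.389 CPM each. ALDOA was at 0.217 CPM in culture 4 and EIF3L at 0.856 CPM in culture 5. All 8 lay at or below the level of 3 reads in their own culture.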

How the results depend on the processing

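The count of genes present stayed between 9633 and 11627 under other minimums, scalings and depths, and between 10927 and 11415 with a culture left out. The top 20 genes took 11.2% of reads where the top 10 took 7.29%, and leaving out a culture gave 6.85% to 7.80%. The median CV was 37.0% to 45.9% under other filters and scalings, and 39.6% to 45.6% with a culture left out. The number of genes ranging 4-fold was 753 at a mean of 50 CPM or more, 3284 at a mean of 5 CPM or more, 1484 with a pseudocount of 5, 2626 with one of 0.5, 1869 and 1957 under other scalings, and 1562 to 2323 with a culture left out. Chosen after the data were seen, GC subtraction gave 1009 genes and a median CV of 33.5%, and thinning to the shallowest culture gave 2565 genes. Genes differing between experiments in treated libraries numbered 8734 to 10040. For untreated against the rest, 2 genes by limma became 3 with edgeR, 15 with DESeq2, 1 with no filter on low levels, 0 against BTC alone and 0 with no replicate block; leaving out an experiment or an untreated library gave 1 to 3. CCN2 was then still called in 1 of 5 runs without an experiment and 2 of 5 without an untreated library, and ANGPTL4 in all 10. The cause of these differences was not tested, beyond the fewer genes or cultures that a stricter filter or a left-out culture brings. Depth limits a gene at 0 to a ceiling of 1.17 CPM in the shallowest untreated culture, and shared transcript ends can hide genes.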

Other observations

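ITGB2, the shared beta chain of the leukocyte integrins, was high in single libraries, and other genes moved with it. Over the 25 treated libraries 16 of 10051 genes had a Pearson r of at least 0.85 with ITGB2 on the log2(CPM + 1) scale, a rule chosen after the values were seen; the libraries share 5 experiments and differ in depth and in base composition. They include SPP1 (osteopontin), FABP4 and FABP5 (fatty acid carriers), CD36 (a fatty acid receptor), TREM2 and its signalling partner TYROBP, CHI3L1, APOC1, A2M, CEBPA and IL6R. All 16 were highest in untreated culture 3, where 16.6% of all genes were highest. Their summed level was 62.2, 83.5, 413, 132 and 60.5 CPM in untreated cultures 1 to 5. SPP1 was at 4.95, 9.61, 42.0, 8.03 and 4.85 CPM and TREM2 at 5.48, 5.77, 28.8, 16.3 and 5.99 CPM. Among all 30 libraries ITGB2 was highest at 1533 CPM in the oleic acid and BTC library of experiment 2, then 424 CPM in the DHA and BTC library of experiment 5, then 311 CPM in untreated culture 3. All 16 were likewise highest, among the 25 treated libraries, in that library of experiment 2. Without it 6 of the 16 kept an r of at least 0.85 (24 libraries, median r = 0.83), and without the next one too 1 did (23 libraries, median r = 0.74). Leaving them out was chosen after the data were seen.

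CD9, among the 20 widest of the genes with a mean of 20 CPM or more, had 124 followers by the same measure. Of these 77 were highest in untreated culture 1 and 42 in culture 3, against 35.5% and 16.6% of all genes, and none was highest in culture 2. They summed to 17812, 6660, 17482, 12456 and 9552 CPM. HSPA8, a constitutive chaperone, was at 94.4, 20.9, 81.3, 57.3 and 27.9 CPM, CAPZB, an actin-capping subunit, at 346, 120, 515, 254 and 116 CPM, and SEC61B, part of the protein-conducting channel, at 247, 101, 226, 193 and 121 CPM.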
